A study of Mus musculus with 12 samples.

Results

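Small nucleolar RNAs (snoRNAs) were followed through the early response of mouse blood stem and progenitor cells to ionizing radiation. Their genes were taken as all genes named Snord (box C/D) or Snora (box H/ACA) followed by a number that have a probe set with exactly 1 gene symbol on the array, with the brightest probe set used for each gene. This gave 73 of the 22180 genes so measured, 47 of box C/D and 26 of box H/ACA. Of these, 64 passed the brightness limit and were tested (41 box C/D and 23 box H/ACA). The limit was a log2 value above 5.29 in at least 3 arrays. Snord123, Snora19, Snord43, Snord111, Snord85, Snora20, Snord91a, Snord1b and Snora15 did not pass it.

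Cells were LSK cells, the lineage-negative, SCA1-positive, cKIT-positive part of bone marrow that holds haematopoietic stem and progenitor cells. They came from C57BL/6 mice past 20 months of age, after 10 or more generations of backcrossing, that were wild type (WT) or lacked NIPA (KO). NIPA, the product of Zc3hc1, is a nuclear protein known as a part of a ubiquitin ligase. Each sample merged cells of 3 mice, which were kept for 30 min in medium with 30% serum and the cytokines SCF (50 ng/ml), IL-6 (10 ng/ml) and IL-3 (10 ng/ml). They then received 4 Gy or no irradiation and were harvested after 3 h. The 4 groups, untreated WT, irradiated WT, untreated KO and irradiated KO, hold 3 arrays each. The sources used here do not give how the gene was inactivated, and the labels do not say whether untreated and irradiated samples came from the same pools. The p-values therefore measure the spread between these arrays.

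SnoRNAs are short RNAs of the nucleolus that pair with ribosomal RNA and mark the bases to be modified. Box C/D snoRNAs guide the methylation of riboses in a particle with fibrillarin, NOP56, NOP58 and SNU13. Box H/ACA snoRNAs guide the conversion of uridine to pseudouridine with dyskerin, NHP2, NOP10 and GAR1. A few, such as Snora73a and Snora73b (U17) and Snord118 (U8), act in the cleavage of the ribosomal RNA precursor. Most mouse snoRNAs are not transcribed on their own: they lie in introns of host genes, many of which code ribosomal proteins or nucleolar proteins, and are trimmed out of the intron after splicing. A probe set over a snoRNA can therefore carry signal from the mature snoRNA and from its unspliced host, which cannot be told apart here. Values below are log2 array signals, and a change is the difference of log2 values, irradiated minus untreated.

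Zc3hc1 lay between 7.67 and 8.47 in the 6 WT arrays and between 5.61 and 5.82 in the 6 KO arrays, as the labels require. Of 8 markers of LSK cells, 6 were measured and all 6 were above the limit in all 12 arrays. So were 2 of 4 B cell markers, 3 of 4 each for granulocytes, monocytes with macrophages, and megakaryocytes, and none of 4 T cell markers, while erythroid markers were not analysed here. The summed log2 level of the LSK markers ran from 60.1 to 60.6 in untreated and from 57.8 to 59.8 in irradiated WT arrays, and from 58.4 to 61.1 and from 56.6 to 59.6 in KO arrays. The sum of the monocyte and macrophage markers was also lower in every irradiated WT array, from 28.9 to 29.8 untreated and from 27.3 to 28.2 irradiated, and overlapped between doses in KO cells (27.9 to 30.7 and 26.5 to 31.2). The sums of granulocyte (27.6 to 33.0 and 28.2 to 32.4 in WT, 27.4 to 31.5 and 27.5 to 31.2 in KO), B cell (17.6 to 19.9 and 17.7 to 19.0 in WT, 18.4 to 21.1 and 18.0 to 22.2 in KO) and megakaryocyte markers (28.5 to 30.4 and 29.8 to 30.5 in WT, 28.9 to 30.1 and 29.4 to 30.8 in KO) overlapped between doses in both genotypes. T cell marker sums lay between 20.2 and 20.8 in untreated and between 20.9 and 21.2 in irradiated WT arrays, without overlap, and between 20.6 and 21.3 and between 20.3 and 21.0 in KO arrays. The 6 LSK markers did not move alike when averaged over genotypes. Flt3 (-1.13, limma, adjusted p = 3.87e-05) and Meis1 (-0.58, adjusted p = 0.00314) fell. Kit (-0.51), Cd34 (-0.09), Hlf (-0.03) and Mecom (0.79) did not pass. The part of cell composition in the results below was not tested, and in bulk samples fewer cells of a type and less RNA per cell cannot be told apart. SnoRNA genes varied more between replicate arrays than other genes. Their median SD within groups was 0.331, against 0.182 over all 15348 genes tested, and 56 of the 64 lay above that median. It ranged from 0.0961 for Snord23 to 1.04 for Snord70.

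More snoRNA genes fell than rose after irradiation. Averaged over both genotypes, 15 of 64 fell and 4 rose, while 45 did not pass the test (limma, adjusted p under 0.05). The falls make up 23.4% of the tested snoRNA genes, beside 9.60% of all genes tested, and the rises 6.25%, beside 6.90%. The median change was -0.21, against -0.004 over all genes, and 47 of 64 changes were below 0. Among box C/D genes 12 of 41 fell and 2 rose, with a median of -0.29. Among box H/ACA genes 3 of 23 fell and 2 rose, with a median of -0.14. Without irradiated WT array 3, 2 snoRNA genes rose and 11 fell. With the sample number as a block within each genotype, 26 fell and 5 rose, beside 12.5% and 9.08% of all genes. The labels give no such pairing, which was taken from correlations between arrays that held in WT but not in KO cells.

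The median of the 64 genes within an array showed the same order. It lay between 7.51 and 7.70 in the 6 untreated arrays and between 7.08 and 7.32 in the 6 irradiated arrays, with no overlap. For all genes tested the array medians ran from 7.18 to 7.26 and from 7.10 to 7.21.

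**Figure D1:**
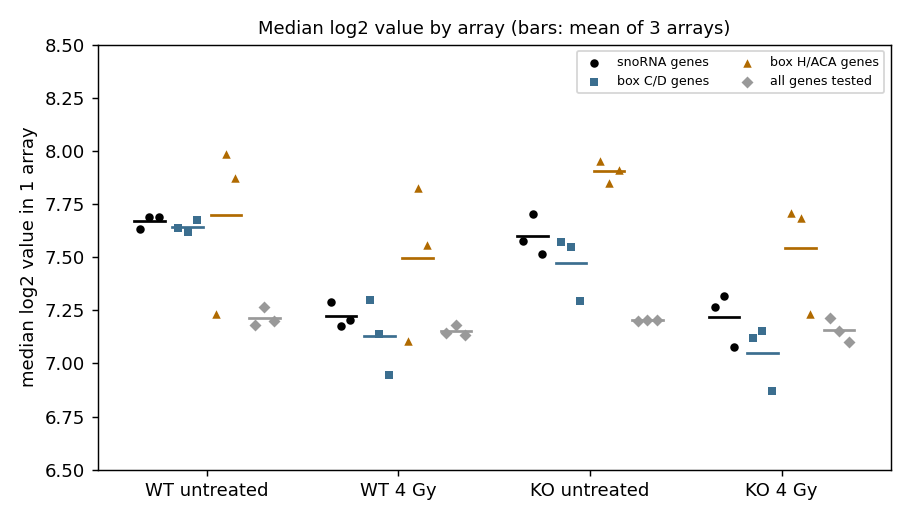
Median log2 value in each of the 12 arrays over the 64 snoRNA genes, the 41 box C/D genes, the 23 box H/ACA genes and all 15348 genes tested. Points are arrays and bars the mean of the 3 arrays of a group. The 6 irradiated arrays lie between 7.08 and 7.32 for the 64 snoRNA genes, all below the 6 untreated arrays. The box C/D and the box H/ACA medians each overlap between doses. For box C/D, irradiated WT array 1 (7.2999) lies just above untreated KO array 3 (7.2956).

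For 6 of the 64 genes all 6 irradiated arrays lay below all 6 untreated arrays, beside 4.68% of all genes tested, and for none did they lie above, beside 3.62%. They were Snora75, Snord99, Snord92, Snord52, Snord35a and Snora7a, and all 6 passed the test. Snora7a is named after its values were seen, as are Snord88a and Snord73a below.

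Snord92 is a box C/D gene within Wdr43, which codes a nucleolar protein of the small ribosomal subunit's assembly. It measured 8.61, 7.76 and 8.24 in untreated and 7.30, 6.73 and 7.25 in irradiated WT cells. In KO cells it measured 8.39, 7.76 and 7.77 untreated and 7.27, 7.24 and 6.67 irradiated. Every irradiated array lay below every untreated one, and the average change was -1.01 (SE 0.18, adjusted p = 0.00239), a 2.02-fold fall.

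Snord99 is a box C/D gene of Snhg12, a host that codes no protein. Its values were 7.68, 7.85 and 7.67 in untreated WT, 7.28, 7.14 and 6.71 in irradiated WT, 7.32, 7.97 and 7.67 in untreated KO and 7.06, 6.62 and 6.73 in irradiated KO cells. Both genotypes were lower after irradiation with no overlap of arrays, and the average fall was -0.77 (SE 0.13, adjusted p = 0.00196).

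Snord52, whose host is 1110038B12Rik, read 7.06, 7.33 and 6.91 in untreated and 6.34, 6.28 and 5.43 in irradiated WT cells, and 7.31, 6.94 and 6.74 against 6.72, 5.90 and 6.17 in KO cells. The highest irradiated value, 6.72, was just under the lowest untreated value, 6.74. Its average change was -0.91 (SE 0.18, adjusted p = 0.00549).

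Snord35a is 1 of the box C/D genes in introns of Rpl13a, a set known for its release in lipotoxic and oxidative stress. It read 7.75, 7.36 and 7.62 in untreated and 6.82, 6.94 and 5.97 in irradiated WT cells, and 7.59, 7.42 and 7.34 against 7.12, 6.45 and 6.87 in KO cells. The groups did not overlap in either genotype, and the average change was -0.82 (SE 0.17, adjusted p = 0.00562).

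Snora75 is a box H/ACA gene of Ncl, the gene of nucleolin. In WT cells its values were 6.33, 6.62 and 6.33 untreated and 6.15, 6.01 and 5.91 irradiated. KO cells gave 7.13, 6.96 and 7.20 untreated and 6.22, 5.27 and 5.84 irradiated. The untreated KO arrays were the highest of the 12, the irradiated arrays of both genotypes the lowest, and the average change was -0.86 (SE 0.14, adjusted p = 0.00129).

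The largest fall in size was that of Snord72, a box C/D gene of the ribosomal protein gene Rpl37. It read 7.87, 7.87 and 7.23 in untreated and 6.82, 7.04 and 6.18 in irradiated WT cells, and 7.96, 7.81 and 7.75 against 7.77, 6.17 and 6.21 in KO cells. Irradiated KO array 1 stayed at the untreated level, while the other two KO arrays were more than 1.5 units lower. The average change was -1.05 (SE 0.26, adjusted p = 0.0159).

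Further box C/D genes fell by less. Snord65, of 2410006H16Rik, changed by -0.81 (adjusted p = 0.0128), and Snord82, of Ncl, by -0.70 (adjusted p = 0.0123). Snord53, which shares Wdr43 with Snord92, changed by -0.71 (adjusted p = 0.0204), a call that ended without untreated KO array 2 or untreated WT array 3 (adjusted p up to 0.0546). Snord35b changed by -0.67 (adjusted p = 0.0487) and Snord16a, of Rpl4, by -0.58 (adjusted p = 0.0492).

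The calls of Snord35b and Snord16a were at the edge of the threshold. That of Snord35b ended in 10 of 12 fits that each left out 1 array, with adjusted p up to 0.115, and was kept without irradiated KO array 1 and without irradiated WT array 1. For Snord16a the call ended in 9 of 12, with adjusted p up to 0.114, and was kept without untreated KO array 3, irradiated KO array 1 and irradiated WT array 1. Without a brightness limit neither call was kept. Snord35b was also lost with array medians subtracted and with a trended prior, and Snord16a after cyclic loess (adjusted p up to 0.0608 and 0.0698).

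Snord88a (-0.57, adjusted p = 0.0274), Snora7a (-0.55, adjusted p = 0.0116) and Snord73a (-0.38, adjusted p = 0.0416) fell as well. Snora7a lies in Rpl32 and Snord73a in Rps3a1, both genes of ribosomal proteins. The call of Snora7a was kept in all 12 fits without an array, while that of Snord88a ended in 7 (adjusted p up to 0.07) and without both irradiated arrays numbered 1 (0.0571). Snord88a kept its call without untreated KO array 3, irradiated KO arrays 1 or 3, untreated WT array 1 or irradiated WT array 2. Snord73a kept its call only without irradiated KO array 3 or irradiated WT array 2 (adjusted p up to 0.0983 in the other 10), and lost it with no brightness limit, after cyclic loess and without both irradiated arrays numbered 1 (up to 0.084). Snora23, a box H/ACA gene of Ipo7, the gene of a nuclear import receptor, also fell. It measured 10.81, 10.34 and 10.85 in untreated and 10.38, 9.45 and 10.16 in irradiated WT cells, and 10.85, 10.61 and 10.56 against 9.87, 9.88 and 10.37 in KO cells. Its average change was -0.65 (SE 0.16, adjusted p = 0.0168), and untreated and irradiated arrays overlapped in WT but not in KO cells.

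Of the 4 genes that rose, Snora74a, a box H/ACA gene of the noncoding host Snhg4, went from 6.38, 6.59 and 6.59 to 7.11, 7.40 and 7.03 in WT cells. KO cells gave 6.25, 6.16 and 6.05 untreated and 7.39, 7.60 and 6.23 irradiated. Irradiated KO array 3 lay with the untreated arrays, and the other five irradiated arrays lay above all untreated ones. The average rise was 0.79 (SE 0.19, adjusted p = 0.0145).

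Snord17, a box C/D gene in the sorting nexin gene Snx5, read 8.47, 8.87 and 8.93 in untreated and 9.23, 9.03 and 9.47 in irradiated WT cells, and 8.76, 9.29 and 8.66 against 9.68, 9.82 and 9.25 in KO cells. WT arrays did not overlap, and in KO cells untreated array 2 exceeded irradiated array 3. The rise was 0.58 (SE 0.14, adjusted p = 0.0159).

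Snora78 lies within the intervals of both Rps2 and Snhg9. Its rise of 0.42 (SE 0.11, adjusted p = 0.0191) did not overlap in either genotype: untreated values were 8.12, 8.36 and 8.38 in WT and 8.22, 8.12 and 7.91 in KO cells, and irradiated values 8.40, 8.60 and 8.73 and 8.84, 8.74 and 8.32. Without irradiated WT array 3 its adjusted p was 0.0502.

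Snord70, of Nop58, had the largest change and the largest spread. It read 4.81, 5.62 and 5.01 in untreated and 7.32, 4.97 and 6.70 in irradiated WT cells, and 6.40, 4.26 and 3.54 against 6.30, 7.40 and 6.22 in KO cells. Irradiated WT array 2 lay with the untreated arrays and untreated KO array 1 with the irradiated ones. The rise of 1.55 (SE 0.49, adjusted p = 0.048) was kept in 3 of 12 fits that left out an array (without untreated KO array 1, irradiated KO array 1 or irradiated WT array 2) and lost in the others (adjusted p up to 0.111). It was also lost with no brightness limit, with a trended prior, when scaled by cyclic loess or by array medians, and without the 2 irradiated arrays numbered 1 (adjusted p up to 0.0846).

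**Figure D2:**
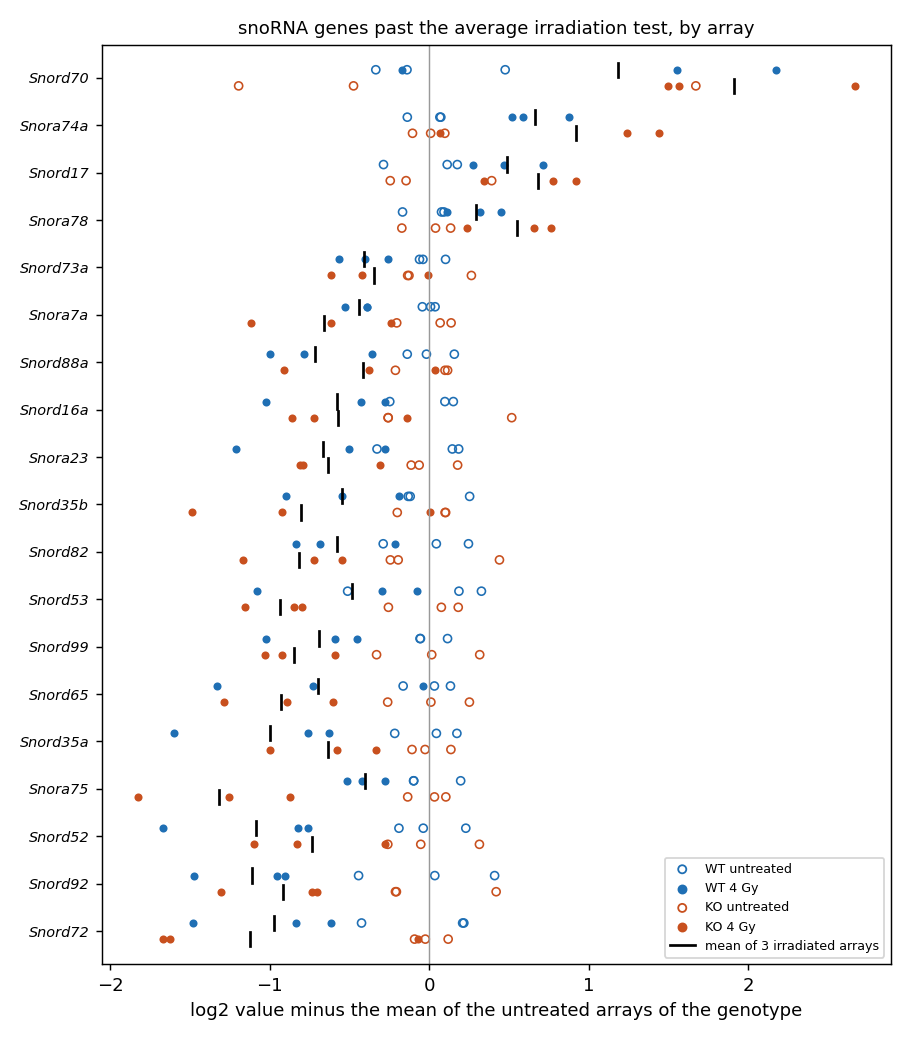
Values of the 19 snoRNA genes that passed the average irradiation test, as log2 value minus the mean of the 3 untreated arrays of the same genotype. Open points are untreated and filled points irradiated arrays, and black bars the mean of 3 irradiated arrays. The irradiated arrays of Snora75, Snord99, Snord92, Snord52 and Snord35a lie to the left of the untreated ones, and Snord70 spreads over more than any other gene.

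Large changes without a call were found where replicates disagreed. Snord13 (U13), a box C/D gene that lies in no host interval, read 9.15, 9.84 and 9.63 in untreated and 10.83, 9.21 and 10.80 in irradiated WT cells, and 10.29, 8.13 and 7.77 against 9.94, 10.67 and 10.43 in KO cells. Its average change was 1.18 (SE 0.41, adjusted p = 0.0678). As for Snord70, irradiated WT array 2 was low and untreated KO array 1 high.

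Snord49b showed that pattern too. It read 7.95, 8.11 and 7.78 in untreated and 8.67, 7.74 and 8.65 in irradiated WT cells, and 8.51, 7.41 and 7.19 against 8.73, 8.90 and 8.16 in KO cells, a change of 0.65 (adjusted p = 0.0826). Snora33, of Rps12, had the brightest probe set of all snoRNA genes and the same 2 arrays out of place. Its values were 12.70, 12.66 and 12.41 against 13.41, 11.95 and 12.95 in WT and 13.01, 11.81 and 11.78 against 13.07, 13.15 and 12.51 in KO cells, a change of 0.45 (SE 0.26, adjusted p = 0.281). A second, dimmer probe set of Snora33 changed by -1.06 (SE 0.22), so the 2 probe sets of this gene differed in direction. Snord87, which lies in Snhg6 and Mcmdc2, changed by -0.89 without passing (adjusted p = 0.0779).

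Other bright probe sets showed little change. Snord104 changed by 0.03 (SE 0.13, adjusted p = 0.902) and Snord89, which lies in no host interval, by -0.12 (SE 0.24, adjusted p = 0.798). Brightness describes a probe set and is no measure of one snoRNA's amount against another's.

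In WT cells alone 3 snoRNA genes fell and none rose (limma, adjusted p under 0.05). The share that fell was 4.69%, beside 2.70% of all genes, and 2.13% of all genes rose. At an unadjusted p under 0.05, 17 snoRNA genes (26.6%) were lower and 3 (4.69%) higher, beside 11.1% and 8.69% of all genes. The falls were those of Snord92 (-1.11, SE 0.25, adjusted p = 0.0264), Snord35a (-0.998, SE 0.24, adjusted p = 0.0313) and Snord52 (-1.08, SE 0.26, adjusted p = 0.034). The median change was -0.19, and -0.29 without untreated WT array 1.

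WT samples with the same number deviated together, and with the number as a block 10 genes fell and none rose, beside 4.68% of all genes that fell and 3.32% that rose. They were Snord92, Snord52, Snord16a, Snord35a, Snord87, Snora23, Snora2b, Snord72, Snord73a and Snord110, named here with their values known. In the fit without the block no call in WT cells was stable to the loss of an array. Snord92 was lost without untreated WT arrays 1 or 3 or irradiated WT arrays 2 or 3 (adjusted p up to 0.0959). Snord52 was lost without any 1 untreated WT array, irradiated WT array 3 or untreated KO array 2 (up to 0.142). Snord35a was lost without any 1 untreated WT array or irradiated WT array 3 (up to 0.11), and when the fit held no KO arrays (0.057). The count was 0 when array 3 of either WT group was left out, 1 without untreated WT array 2, 6 without irradiated KO array 1, 7 without both irradiated arrays numbered 1 and 5 with array weights. Snora74a rose without irradiated KO array 3 and when the fit held no KO arrays.

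In KO cells 2 snoRNA genes fell and none rose, 3.12% beside 3.20% of all genes that fell and 2.74% that rose. At an unadjusted p under 0.05, 17 (26.6%) were lower and 7 (10.9%) higher, beside 11.2% and 8.68% of all genes. The median change was -0.28. Snora75 fell by 1.32 on the log2 scale (SE 0.20, adjusted p = 0.00207), a 2.5-fold change that passed in every fit that left out an array. Snord99 changed by -0.85 (SE 0.19, adjusted p = 0.0195), a call that was lost without untreated KO arrays 2 or 3 or irradiated KO arrays 2 or 3 (up to 0.0917) and when the fit held no WT arrays (0.0559). That no gene rose depended on single arrays and on the setting. Without untreated KO array 1, Snord13, Snord49b and Snord70 rose and 2 genes fell. Without irradiated KO array 3, Snora74a and Snora78 rose and 1 gene fell, and without untreated KO array 2, Snord17 rose and 1 gene fell. Falls alone numbered 8 without irradiated KO array 1, 5 without irradiated WT array 3, 4 without untreated WT arrays 1 or 2 or irradiated WT array 2, and 1 without untreated KO array 3 or irradiated KO array 2. They numbered 10 without both irradiated arrays numbered 1 and 4 with a stricter brightness limit. With array weights 10 fell and 2 rose (Snora74a and Snora78), and after cyclic loess 2 fell and Snora78 rose. With the sample number as a block Snora74a rose. With the number as a block within each genotype Snora74a, Snora78 and Snord17 rose, though correlations between KO arrays did not show such a pairing.

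The changes ran alike in the 2 genotypes for most of the genes. They were below 0 in both for 38 of 64, above 0 in both for 15 and of opposite sign for 11.

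**Figure D3:**
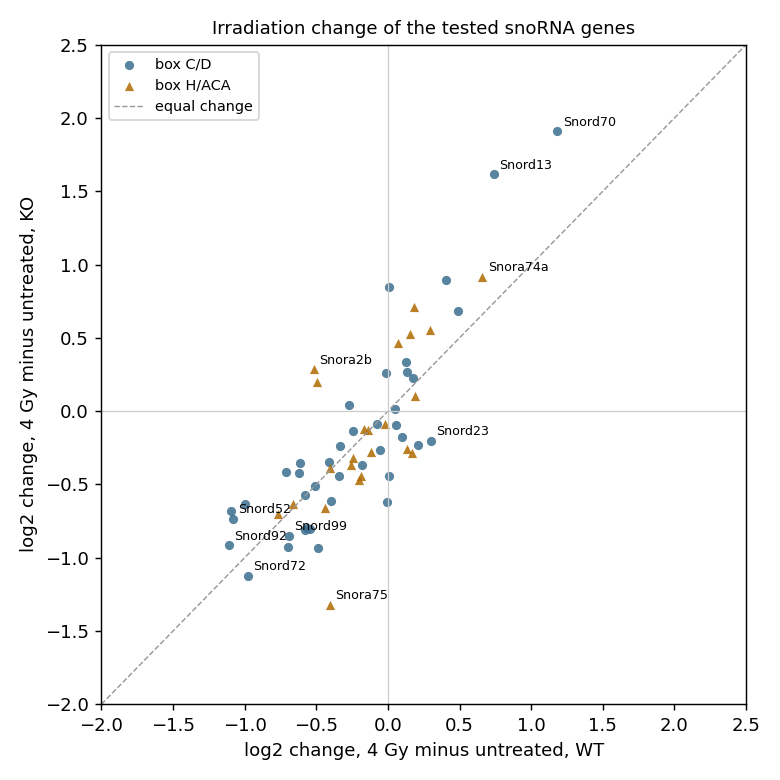
Log2 change after irradiation of each of the 64 snoRNA genes in WT cells (horizontal) and in KO cells (vertical), with the line of equal change dashed. Circles are box C/D and triangles box H/ACA genes. Snora75 lies farthest below the line, at -0.40 in WT and -1.32 in KO cells, and 38 of 64 genes lie below 0 on both axes.

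No snoRNA gene passed the test between the genotypes. In untreated cells 0 of 64 passed (limma), beside 0.00652% of all genes that were lower in KO cells, which is Zc3hc1 alone, and 0% that were higher. At an unadjusted p under 0.05, which 1.42% of all genes reached as higher and 0.73% as lower, Snora75 was higher in KO cells (0.67, 95% interval 0.24 to 1.09, adjusted p = 1) and Snora44 lower (-0.48, interval -0.89 to -0.08, adjusted p = 1). The largest other differences in size were those of Snord19 (-0.88, interval -2.06 to 0.31) and Snord13 (-0.81, interval -2.06 to 0.44), 2 genes of large spread. Snora73b and Snora73a, the paired U17 genes of Snhg3, lay 0.44 and 0.36 higher in KO cells, with intervals that include 0.

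In irradiated cells 0 of 64 passed either, beside 0.00652% of all genes, again Zc3hc1. At an unadjusted p under 0.05 (1.34% of all genes higher and 1.73% lower), Snora2b was 0.62 higher in KO cells (interval 0.20 to 1.05), and Snord23 (-0.34), Snord49a (-0.54) and Snora61 (-0.28) were lower. The median half-width of the 95% interval was 0.507 for a snoRNA gene. The interval takes no account of the number of genes tested, and Snora2b did not pass at 0.62. Differences of 0.507, and larger ones, could thus be missed.

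The difference between the irradiation effects of KO and WT cells passed for 0 of 64 snoRNA genes (limma), beside 0% of all genes in either direction. At an unadjusted p under 0.05, 3 (4.69%) were lower and 2 (3.12%) higher, beside 1.12% and 0.41% of all genes. The KO change minus the WT change was -0.92 for Snora75 (interval -1.52 to -0.31), -0.50 for Snord23 (interval -0.82 to -0.18) and -0.39 for Snora61 (interval -0.78 to -0.003). Snora2b (0.80, interval 0.20 to 1.40) and Snora16a (0.69, interval 0.08 to 1.30) differed the other way. Each had an adjusted p = 1.

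Host genes were assigned from the RefSeq gene intervals, which hold 61 of the 64 tested snoRNA genes. Snord89, Snord13 and Snord118 lay in no interval. The intervals name 53 host genes, of which 39 were tested. Averaged over genotypes 9 of these 39 hosts (23.1%) fell, beside 9.60% of all genes, 1 (2.56%) rose and their median change was -0.08.

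Of 13 falling snoRNA genes with a tested host, 4 (30.8%) had a host that fell and 9 a host that did not pass. Among the 35 pairs whose snoRNA gene did not pass, 7 hosts (20%) fell, a difference that was not tested. The 4 falling pairs were Snord92 and Snord53 with Wdr43 (-0.54, adjusted p = 0.00165), Snord72 with Rpl37 (-0.54, adjusted p = 0.0237) and Snord88a with 2410002F23Rik (-0.60, adjusted p = 0.001). The Rpl37 probe set was dim. Its mean over all arrays was 5.18, under the brightness limit of 5.29, which it passed in at least 3 arrays. The fall of Rpl37, which also counts among the falling hosts above, therefore rests on a signal near that limit. Ncl read 10.94, 11.03 and 11.00 in untreated and 10.77, 11.08 and 11.31 in irradiated WT cells, and 11.18, 11.22 and 10.90 against 11.03, 11.03 and 11.12 in KO cells. Its change was 0.01 (SE 0.10, adjusted p = 0.953), while both of its snoRNA genes, Snora75 and Snord82, fell.

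None of the 4 rising genes had a tested host that rose, and only 1 of the 39 tested hosts rose at all. Rps2, which also holds Snora78, was not tested. Nop58, which holds Snord70, fell by 0.48 (adjusted p = 0.00947) and Snx5, which holds Snord17, fell by 0.46 (adjusted p = 0.00775). Snhg4, of Snora74a, changed by -0.41 (adjusted p = 0.0775) and Snhg9, of Snora78, by -0.25 (adjusted p = 0.0519). Across 52 pairs of a snoRNA gene and a tested host Pearson's r of the changes was -0.06 and Spearman's rho -0.03, as a description of pairs that share arrays and, in part, hosts.

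**Figure D4:**
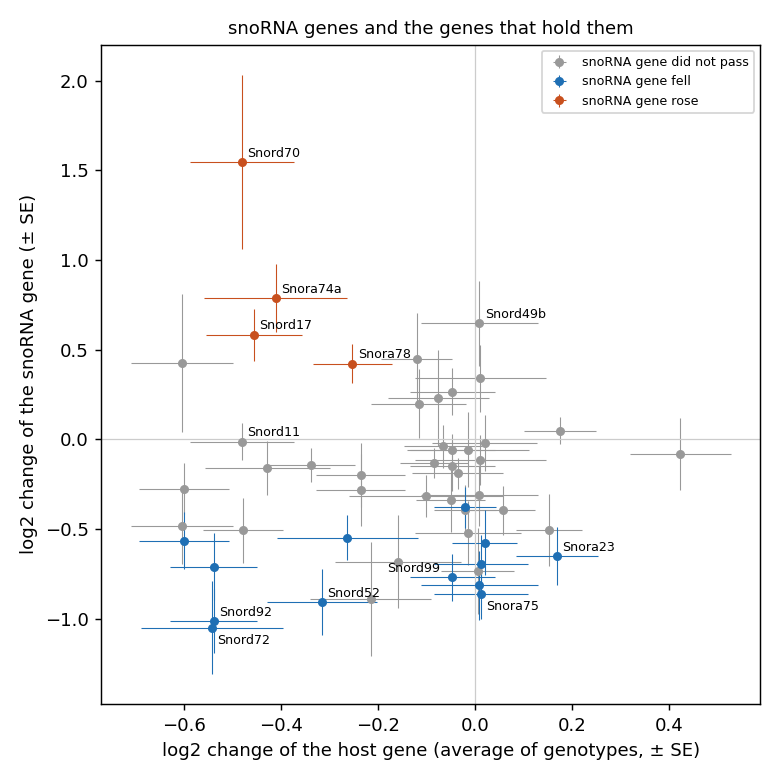
Average log2 change after irradiation of 52 snoRNA genes (vertical) against that of their tested host genes (horizontal), with bars of 1 SE. Blue points are snoRNA genes that fell, orange points those that rose and grey points those that did not pass. The 4 genes that rose lie to the left of 0, with hosts between -0.48 and -0.25, and many falls lie near a host change of 0.

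Of the 4 snoRNA genes in Snhg12, Snord99 fell (-0.77), while Snora16a (-0.15), Snora61 (-0.06) and Snora44 (0.26) did not pass, and Snhg12 itself changed by -0.05. In 2410006H16Rik, Snord65 fell (-0.81), and Snord49a (-0.31) and Snord49b (0.65) did not pass. In Nop58, Snord70 rose (1.55) and Snord11 changed by -0.01. In Gnl3, the gene of nucleostemin, which fell itself (-0.60, adjusted p = 0.00218), Snord69 changed by -0.48 and Snord19 by 0.43 without passing. Snora75 and Snord82 in Ncl, and Snord92 and Snord53 in Wdr43, fell together. Whether snoRNA genes of a host differ from each other in their change was not tested.

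The start sequences of the hosts that hold more than 1 tested snoRNA gene with at least 1 call are shown because many snoRNA hosts are known to begin with a run of pyrimidines, the mark of a class of genes tied to growth. Each line gives 60 bases, 35 before and 25 after the start, from RefSeq in GRCm38.p6. Capitals mark an unbroken run of 8 or more C or T on the host's strand that reaches into the last 5 bases before or the first 10 after the start.
2410002F23Rik, host of Snord88a and Snord88c, chr7:44246687-44246746, plus strand: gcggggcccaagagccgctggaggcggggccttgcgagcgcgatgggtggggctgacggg
2410006H16Rik, host of Snord65, Snord49a and Snord49b, chr11:62602842-62602901, plus strand: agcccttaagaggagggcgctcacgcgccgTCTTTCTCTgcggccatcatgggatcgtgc
Ncl, host of Snora75 and Snord82, chr1:86359431-86359490, minus strand: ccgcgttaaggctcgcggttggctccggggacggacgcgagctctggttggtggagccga
Nop58, host of Snord70 and Snord11, chr1:59684971-59685030, plus strand: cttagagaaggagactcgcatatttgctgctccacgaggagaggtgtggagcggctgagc
Rps3a1, host of Snord73a and Snord73b, chr3:86142644-86142703, minus strand: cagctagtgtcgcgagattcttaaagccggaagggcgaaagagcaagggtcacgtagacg
Snhg12, host of Snord99, Snora16a, Snora61 and Snora44, chr4:132308643-132308702, plus strand: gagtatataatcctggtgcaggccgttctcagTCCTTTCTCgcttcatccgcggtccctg
Wdr43, host of Snord92 and Snord53, chr17:71616180-71616239, plus strand: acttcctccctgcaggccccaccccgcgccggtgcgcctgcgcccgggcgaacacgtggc

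Only the windows of 2410006H16Rik and Snhg12 hold such a run, of 9 bases in each. Both hosts have snoRNA genes that fell beside others that did not pass, and neither host passed the test (0.01 and -0.05). Among the 40 hosts of tested snoRNA genes with a window, 9 (22.5%) had the run, beside 13% of 27025 genes. A run is a description of the letters at the annotated start, which may not be the start used in these cells.

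Most genes of the core snoRNA particles fell after irradiation too. Averaged over genotypes, all 3 tested genes of the box C/D core fell, beside 9.60% of all genes. They were Nop56 (-0.48, adjusted p = 0.00203), Nop58 (-0.48, adjusted p = 0.00947) and Snu13 (-0.45, adjusted p = 0.0233). Nop56 and Nop58 are also host genes and count among the falling hosts above. Fbl, the gene of fibrillarin, was not measured by a probe set of its own. Nop56 read 10.97, 11.21 and 11.23 in untreated and 10.66, 10.81 and 10.61 in irradiated WT cells, and 11.25, 11.25 and 11.03 against 10.78, 10.64 and 10.56 in KO cells, without overlap.

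Of the 4 genes of the box H/ACA core 3 fell, beside 9.60% of all genes. They were Dkc1 (-0.84, adjusted p = 0.00398), Gar1 (-0.52, adjusted p = 0.0183) and Nop10 (-0.40, adjusted p = 0.0196), while Nhp2 changed by -0.49 (adjusted p = 0.0539). Dkc1, the gene of dyskerin, the enzyme that makes pseudouridine, read 9.33, 9.52 and 9.36 in untreated and 8.34, 8.79 and 8.20 in irradiated WT cells. In KO cells it read 9.69, 9.37 and 8.86 against 8.98, 8.25 and 8.54, with an overlap of untreated array 3 and irradiated array 1.

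**Figure D5:**
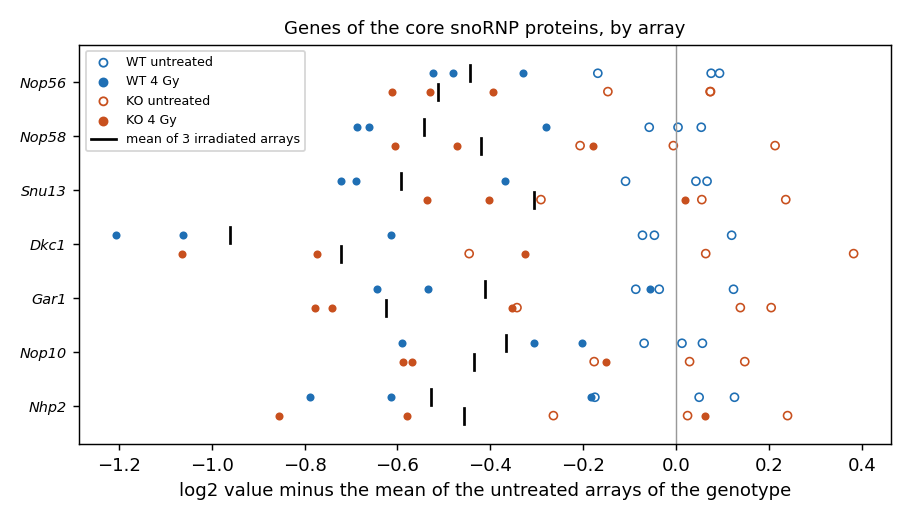
Values of the 7 measured genes of the snoRNA core particles, as log2 value minus the mean of the 3 untreated arrays of the same genotype. Open points are untreated and filled points irradiated arrays, and black bars the mean of 3 irradiated arrays. The means of the irradiated arrays lie below 0 for all 7 genes in both genotypes, and Nhp2 is the gene that did not pass the test.

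Of 11 genes of snoRNP assembly and transport 5 (45.5%) fell and none rose, with a median of -0.36, beside 9.60% of all genes that fell and 6.90% that rose. Among them were Shq1 (-0.71, adjusted p = 0.0082), the assembly factor of dyskerin, Nolc1 (-0.45, adjusted p = 0.011), Tcof1 (-0.60, adjusted p = 0.0171), the gene of treacle, and Ruvbl1 (-0.55, adjusted p = 0.0184). Of 14 tested genes on a list for snoRNA 5-prime and 3-prime processing, 4 (28.6%) fell and none rose, with a median of -0.16. They were the exosome genes Exosc5 (-0.75, adjusted p = 0.000174) and Dis3 (-0.45, adjusted p = 0.00249), Pnpt1 (-0.33, adjusted p = 0.0129) and Parn (-0.29, adjusted p = 0.0318), the gene of a deadenylase that trims H/ACA RNAs.

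Among 12 tested spliced hosts that code no protein 3 (25%) fell and 1 (8.33%) rose. Snhg5 (-0.40, adjusted p = 0.00798), Snhg7 (-0.40, adjusted p = 0.0188) and Snhg20 (-0.51, adjusted p = 0.0257) fell and Snhg15 rose (0.51, adjusted p = 0.00735). Of 45 tested genes on the list of protein coding hosts 12 (26.7%) fell and none rose, with a median of -0.08. Rc3h2, which holds Snord90 and is not on that list, rose (0.42, adjusted p = 0.0156). Ppan, a gene of large subunit assembly, had the lowest value of the list (-1.21, adjusted p = 0.00215). None of 5 tested genes on a list of nonsense-mediated decay and exosome cofactors passed for the average irradiation effect (limma). None of them had an unadjusted p under 0.05 in that contrast. Of 63 genes of cytoplasmic ribosomal proteins 4 (6.35%) fell and 1 (1.59%) rose, beside 9.60% and 6.90% of all genes, with a median of -0.07.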

How the data were processed

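Gene expression was measured on Affymetrix arrays with the WT Pico chemistry after column extraction of total RNA, in 12 arrays of 4 groups. The authors deposited log2 values per probe set and array, and the submitters' processing notes name oligo and RMA. The sources used here do not give their versions or the genome build. Gene symbols came from the platform annotation, in which 23521 of 41345 probe sets have 1 symbol. All 73 snoRNA gene IDs matched the RefSeq table.

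The brightness limit was the 40th percentile of the table (5.29) in at least 3 arrays, which kept 15348 genes. One limma 3.58.1 fit (R 4.3.3, lmFit and eBayes, tested on simulated data) over all 12 arrays gave contrasts with two-sided p-values, adjusted by Benjamini-Hochberg over all 15348 genes at 0.05. The number of arrays limits the precision. Host intervals carry no strand in the table used.

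Samples with the same number correlated in their deviations from group means by 0.491, 0.476 and 0.42 in WT, which was taken as pairing, and by 0.474, -0.239 and -0.122 in KO cells, which was not. Between genotypes, untreated WT arrays 1 and 2 correlated best with the KO array of their number (0.161 and 0.233). So did irradiated WT array 1 (0.341), while the other WT arrays did not. What the numbers share was not tested. Alternatives were the block, the limit, scaling, array weights, the variance prior, the probe set rule and leaving out arrays. Members, lists and naming rule were chosen with earlier results of these data known. The rule names snoRNA genes past the test (at most the 12 largest falls and 12 largest rises per contrast), the 4 largest rises and falls per simple contrast, the 6 brightest, the 4 of largest spread, the core genes, up to 4 called genes per list, and hosts.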

Additional observations from a re-analysis of the deposited data

Results flagged for a closer look

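Snord23, a box C/D gene in Nop53, moved in opposite directions in the 2 genotypes without overlap of arrays. It read 9.54, 9.37 and 9.57 in untreated and 9.92, 9.63 and 9.82 in irradiated WT cells, and 9.66, 9.63 and 9.67 against 9.48, 9.50 and 9.37 in KO cells. The difference of the 2 changes was -0.50 (SE 0.15, limma, unadjusted p = 0.00561), and it did not pass the adjustment over all genes (adjusted p = 1).

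The probe set named for both Snord34 and Rpl13a stands outside the 73 genes because it has 2 symbols. It read 11.83, 11.91 and 11.79 in untreated and 12.26, 12.22 and 12.40 in irradiated WT cells, and 11.99, 11.66 and 11.13 against 12.27, 12.41 and 12.13 in KO cells. It rose by 0.67 in KO cells (SE 0.18, limma, adjusted p = 0.0436) and by 0.56 on average (SE 0.12, adjusted p = 0.00905), while Snord35a, another snoRNA gene of Rpl13a, fell by 0.82. Other probe sets named for Rpl13a and a snoRNA gene did not pass on average. That of Snord33 and Mir5121 changed by -0.35 (limma, adjusted p = 0.0686) and that of Snord32a by 0.17 (adjusted p = 0.508).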

How the results depend on the processing

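The median changes after irradiation stayed below 0 in all settings run. The count of snoRNA genes past the irradiation test moved as follows. In WT cells (3) it was 5 with array weights, 7 with the replicate block, 10 with the block within genotype, 7 without both irradiated arrays numbered 1, and 0 to 6 when 1 array was left out. In KO cells (2) it was 4 with a stricter brightness limit, 12 with array weights, 12 with the replicate block, 16 with the block within genotype, 10 without both irradiated arrays numbered 1, and 1 to 8 when 1 array was left out. On average over genotypes (19) it was 29 with the replicate block, 31 with the block within genotype, and 13 to 24 when 1 array was left out. KO samples share only a number (1 of 3 correlated best with its own). The main fit has no block, and the KO and average counts with a block are alternatives only. The median change ran from -0.29 to -0.16 in WT cells, from -0.32 to -0.24 in KO cells, from -0.26 to -0.17 on average, and from -0.046 to 0.078 for the genotype effect at 4 Gy when 1 array was left out. Some single differences without a call changed sign: Snord70 in untreated cells without untreated KO array 3 (0.18, over a range from -1.25), Snora73b at 4 Gy without both irradiated arrays numbered 1 (-0.10) and Snord90 at 4 Gy without irradiated KO array 1 (0.015, over a range from -0.68). The cause was not tested. Of the 16 average calls that the naming rule covers, 11 were kept in every one of 12 fits without an array and in every one of 11 other settings, as was Snora7a of the 3 beyond it. Genotype and interaction counts were 0 in all settings run.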

Other observations

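Another 43 probe sets carry a snoRNA symbol beside other symbols, in 26 distinct sets of symbols, of which 23 passed the brightness limit. Averaged over genotypes 4 of the 23 fell and 1 rose (limma), beside 9.60% and 6.90% of the 15348 genes, with a median change of -0.27. Those that fell were the probe sets of Snora81 with Eif4a2 (-0.81, adjusted p = 0.00851), Snord4a with Tlcd1 (-0.74, adjusted p = 0.0263), Snord15b with Rps3 (-0.62, adjusted p = 0.0195) and Snora70 with Rpl10 and Gm5621 (-0.48, adjusted p = 0.0444), named with their values known. Which of its genes gave the signal of such a probe set cannot be told apart.

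Of 203 tested microRNA genes 15 (7.39%) rose and 8 (3.94%) fell, beside 6.90% and 9.60% of all genes, with a median change of 0.05. Of 5 tested scaRNA genes, the relatives of snoRNAs in Cajal bodies that guide modification of spliceosomal RNA, 1 rose and 1 fell. These counts were not tested against those of the snoRNA genes.

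Among the 9 snoRNA genes below the brightness limit, a fit over all 22180 genes gave changes from -0.54 for Snord111 to 0.38 for Snord43, which has the only adjusted p under the threshold there (0.0279).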
